A study of Mus musculus with 4 samples.

Results

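The locus described here is the mouse gene Vmp1 together with Mir21a, the microRNA-21 gene that overlaps its 3′ end, on chromosome 11 of GRCm38. It was studied by chromatin immunoprecipitation with sequencing (ChIP-seq) of TEAD1 in cardiac fibroblasts of newborn mice. Its members are all peaks whose summit lay inside the annotated span of Vmp1 or Mir21a, or within 100 kb of either end of Vmp1. The rule took 21 of 21285 peaks in the first deposited list and 26 of 21218 in the second. The members were chosen by the measured positions of their summits, so counts and strengths of these peaks are given as a description, without a test.

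The 4 libraries made 4 groups of 1 library each. Cells with a TEAD1 overexpression construct (OE-TEAD1) gave a ChIP library and an input library, and cells with the negative control of that construct (OE-NC) gave the same pair. Input is sonicated, crosslinked chromatin set aside before the immunoprecipitation. The labels do not tie either peak list to OE-TEAD1 or OE-NC, so they are called list 1 and list 2 and say nothing of what overexpression did. No group had a replicate. The labels name neither the vector, the mouse strain nor the antibody, and the age is given only as neonatal.

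TEAD1 binds DNA and works with the Hippo pathway coactivators YAP and TAZ, which enter the nucleus of fibroblasts on stiff matrix or after activation. Vmp1 encodes a membrane protein of the endoplasmic reticulum that moves phospholipids between membrane leaflets and is needed to form autophagosomes. MicroRNA-21 is abundant in fibroblasts, and its level is known to go up in the failing and fibrotic heart. In human cells its primary transcript is known to start inside an intron of VMP1. Which gene, if any, a peak inside the mouse host gene serves was not tested here.

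The microRNA is shown first, because its place in the host gene sets how the peaks are read. Its hairpin lies at chr11:86584067-86584158 on the minus strand, 209 bp inside the 3′ end of the Vmp1 span and 99.7 kb downstream of the annotated Vmp1 start. Sequences are those of RefSeq on GRCm38.p6. In the hairpin, capitals mark the 5p and the 3p mature microRNA, in that order.
mmu-mir-21a hairpin: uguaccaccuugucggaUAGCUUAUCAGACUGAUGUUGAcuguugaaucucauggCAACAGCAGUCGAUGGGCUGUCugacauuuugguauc
In the mature forms, capitals mark the seed, bases 2 to 8, which pairs with target transcripts.
mmu-miR-21a-5p: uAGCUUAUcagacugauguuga
mmu-miR-21a-3p: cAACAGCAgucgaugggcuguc
mmu-miR-21b: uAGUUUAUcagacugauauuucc
mmu-miR-21c: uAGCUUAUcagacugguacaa
The miR-21a-5p seed was shared with miR-21c and with no other of 1679 mature microRNA names in the table.

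TEAD1 peaks were not spread evenly over Vmp1, which spans chr11:86583858-86683836, 99.98 kb. They lay in the part of the gene away from its start, with gaps, and ran on past its 3′ end. Inside the span lay 11 summits of list 1, between 28.1 and 96.9 kb downstream of the start. In list 2 there were 14, between 26.6 and 96.7 kb downstream. The first 26 kb of the gene, from the start inwards, held no summit in either list. Nor did the stretch between the summits 37.1 and 59.4 kb downstream of the start. As background, 20.7% of protein-coding genes had any summit inside their span in list 1 and 20.8% in list 2.

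**Figure D1:**
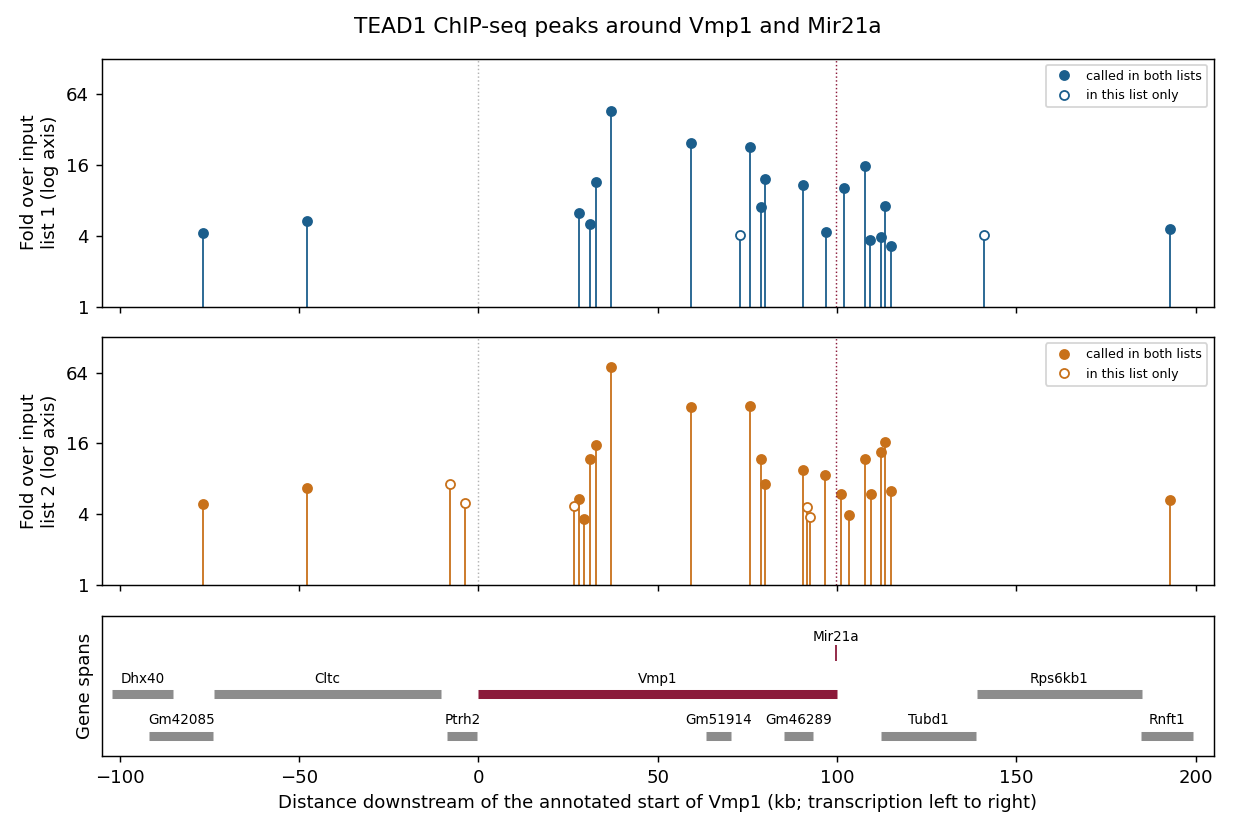
Each stem is a peak at the distance of its summit downstream of the annotated Vmp1 start (kb, x axis), with its fold over input on a log axis, for list 1 (top) and list 2 (middle). Filled points were called in both lists, open points in one list. Dotted lines mark the Vmp1 start and the microRNA-21 hairpin, and gene spans are drawn below, without the pseudogene Gm11478. The highest stem stands 37.1 kb downstream of the start in both lists, at 46.2-fold and 71.0-fold.

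The strongest peak of the locus lay deep in the body of Vmp1, at chr11:86646252-86647179 in list 1 and chr11:86646317-86647085 in list 2. Its summit was 37.1 kb downstream of the Vmp1 start and 62.6 kb upstream of the microRNA-21 hairpin, and the summits of the lists were 12 bp apart. The fold over input, the ChIP pileup at the summit over the local background with 1 added to both, is the authors' value. It was 46.2 in list 1 (95% Poisson interval of the fragment number, 39.5 to 53.8) and 71.0 in list 2 (61.8 to 81.1). Such intervals hold only the counting error of the ChIP fragments, not that of the input or between cultures. The peak rested on 165 fragments over a background of 2.59 in list 1, and on 214 over 2.03 in list 2. Ranked by −log10 q within its own list it was number 87 in each, within the first 0.409% of list 1 and the first 0.410% of list 2.

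A pair of sites between it and the microRNA came next in both lists. The first, 75.8 kb downstream of the start and 23.9 kb upstream of the hairpin, was 22.9-fold over input in list 1 (93 fragments, 18.5 to 27.96). In list 2 it was 33.5-fold (98 fragments, 27.3 to 40.8), with its summit 3 bp away. The other, 59.4 kb downstream of the start, was 24.3-fold in list 1 (73 fragments, 19.1 to 30.5) and 32.8-fold in list 2 (93 fragments, 26.5 to 40.1). At both sites the intervals of the lists overlapped. Neither site lay in the span of the lncRNA genes Gm46289 and Gm51914, which are annotated within the Vmp1 span.

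Close to the microRNA the peaks were weaker, and the hairpin itself was under none. The nearest summit on its upstream side lay 2.79 kb away in list 1 and 2.98 kb away in list 2. At this site list 1 had 30 fragments over a background of 6.22, a fold of 4.29 (2.94 to 6.07). List 2 had 26 fragments over 2.12, a fold of 8.64 (5.76 to 12.5). The fold was thus lower in list 1 although its fragments were not fewer, and its background there was the highest at any peak of the locus in that list. Since the fold divides fragments by background, the lower fold in list 1 follows from its higher background at this site. Why the background differed was not tested. The next site upstream, at 90.7 kb from the Vmp1 start and inside the Gm46289 span, was 10.7-fold in list 1 (7.43 to 15.0) and 9.54-fold in list 2 (6.72 to 13.2). List 2 alone had 2 more peaks in that lncRNA span, with folds of 4.58 and 3.76. Where the primary microRNA-21 transcript starts is not in the gene table, so no distance to it is given.

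On the downstream side of the hairpin a broad peak of list 1, 2816 bp wide, corresponded to 2 narrower peaks of list 2. Its summit lay 2.21 kb from the hairpin and was 10.1-fold over input (30 fragments, 6.91 to 14.3). The list 2 peaks had folds of 6.00 (21 fragments) and 3.90 (14 fragments), with summits 1.22 and 3.55 kb from the hairpin. Counted over 10 kb on either side of the hairpin, there were 5 summits in list 1 and 8 in list 2. The strongest of these lay 7.95 kb downstream of it in each list, at 15.8-fold in list 1 (11.97 to 20.4) and 11.8-fold in list 2 (9.47 to 14.7). Here list 1 had fewer fragments, 56 over a background of 2.62, against 83 over 6.09 in list 2. Fold and fragment number went opposite ways between the lists at 3 of the 19 sites called in both: this one, the one upstream of the hairpin and the one in Gm46289.

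The cluster did not stop at the end of Vmp1. Tubd1, encoding delta-tubulin, is transcribed towards Vmp1, and 12.2 kb separate the 3′ ends of the 2 genes. This interval held 3 summits in list 1 and 5 in list 2, and the 3′ part of Tubd1 held 3 and 2. A site called in both lists fell on either side of the border. Its summit lay inside Tubd1 in list 1 and 0.022 kb past the Tubd1 end in list 2. A site in the last kilobases of Tubd1, 113.4 kb from the Vmp1 start, had 22 fragments in list 1 and 46 in list 2, with folds of 7.13 (4.58 to 10.6) and 16.4 (12.1 to 21.8). The site next to it, with its summit at 112.3 kb in list 1, had 17 and 38 fragments and folds of 3.89 (2.36 to 6.10) and 13.6 (9.73 to 18.5). At both sites the intervals of the lists did not overlap.

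Beyond the cluster the window held few peaks, none above 7.16-fold. On the far side of Tubd1, list 1 had a summit inside Rps6kb1, which encodes the p70 S6 kinase of mTORC1 signalling, at 4.04-fold (10 fragments), and list 2 had none. Rnft1, encoding a RING finger membrane protein, had 1 summit in each list, at 4.55-fold and 5.28-fold. Upstream of Vmp1, Cltc, encoding the clathrin heavy chain, had 1 summit in each list at 5.29-fold and 6.70-fold. The lncRNA Gm42085 had 1 in each at 4.23-fold and 4.88-fold. The Ptrh2 span, a mitochondrial peptidyl-tRNA hydrolase gene, held 2 summits in list 2 only (7.16-fold and 4.95-fold, with 20 and 14 fragments). The helicase gene Dhx40, Gm51914 and Gm11478 had no summit in either list. The rule's limit fell in empty sequence. The last summit inside it on the Rnft1 side lay 92.9 kb from Vmp1 in each list, and the next one out lay 203.1 kb away in list 1 (19.5-fold) and 201.9 kb away in list 2 (6.27-fold). On the other side the last one inside lay 76.8 kb away in list 1 and 76.7 kb away in list 2, and the next one out 152.7 kb away in each (5.51-fold and 6.61-fold).

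The annotated start of Vmp1 was under no peak. It stands 238 bp from that of Ptrh2, which is transcribed the other way. The nearest summit to it was 28.1 kb away in list 1, and 3.79 kb away, inside Ptrh2, in list 2. None of the 8 start windows of the locus in RefSeq (250 bp before to 50 bp after a start, of Rps6kb1, Tubd1, Vmp1, Ptrh2, Cltc and Gm42085) overlapped a peak. The main Vmp1 window is printed as the piece of the locus that the peaks leave free, at chr11:86683787-86684086 on the minus strand. Capitals would mark the TEAD motif GGAATG or the AP-1 motif TGANTCA on either strand, and this window held neither.
Vmp1 start window: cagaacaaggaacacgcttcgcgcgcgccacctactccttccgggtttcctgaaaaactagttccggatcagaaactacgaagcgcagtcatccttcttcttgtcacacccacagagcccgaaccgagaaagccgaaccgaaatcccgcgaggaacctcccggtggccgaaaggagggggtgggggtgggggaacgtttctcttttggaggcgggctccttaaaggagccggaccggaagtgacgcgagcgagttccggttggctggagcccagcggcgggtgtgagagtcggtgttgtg
The other 7 windows held neither motif. Of all 32851 start windows in the table, 14.7% held GGAATG, 4.29% its longer form TGGAATG, and 7.81% TGANTCA. Sequence under the peaks was not analysed here.

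Most sites of the locus were called in both lists. Of its list 1 peaks 19 of 21 (90.5%) overlapped a list 2 peak by at least 1 bp, against 70.9% of all list 1 peaks. Of its list 2 peaks 21 of 26 (80.8%) overlapped a list 1 peak, against 71.4% of all list 2 peaks. Peaks of the locus were wider, with medians of 584 bp in list 1 and 596.5 bp in list 2, against 472 and 445 bp over all peaks. Whether width or strength sets the higher shares was not tested. Where most of both peaks had to overlap, 14 shared sites were left, against 19. The peaks in 1 list only were at 4.04-fold (10 fragments) for both of list 1 and between 3.76-fold and 7.16-fold (14 to 20 fragments) for the 5 of list 2. The median peak of the locus was at 6.24-fold in list 1 and 6.93-fold in list 2, close to the medians over all peaks, 6.24 and 6.83. Folds of at least 10 were reached by 8 peaks of the locus in list 1 (38.1%) and 9 in list 2 (34.6%). Over all peaks the shares were 22.9% and 28.1%. The median peak of the locus rested on 20 fragments in list 1 and 23 in list 2.

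**Figure D2:**
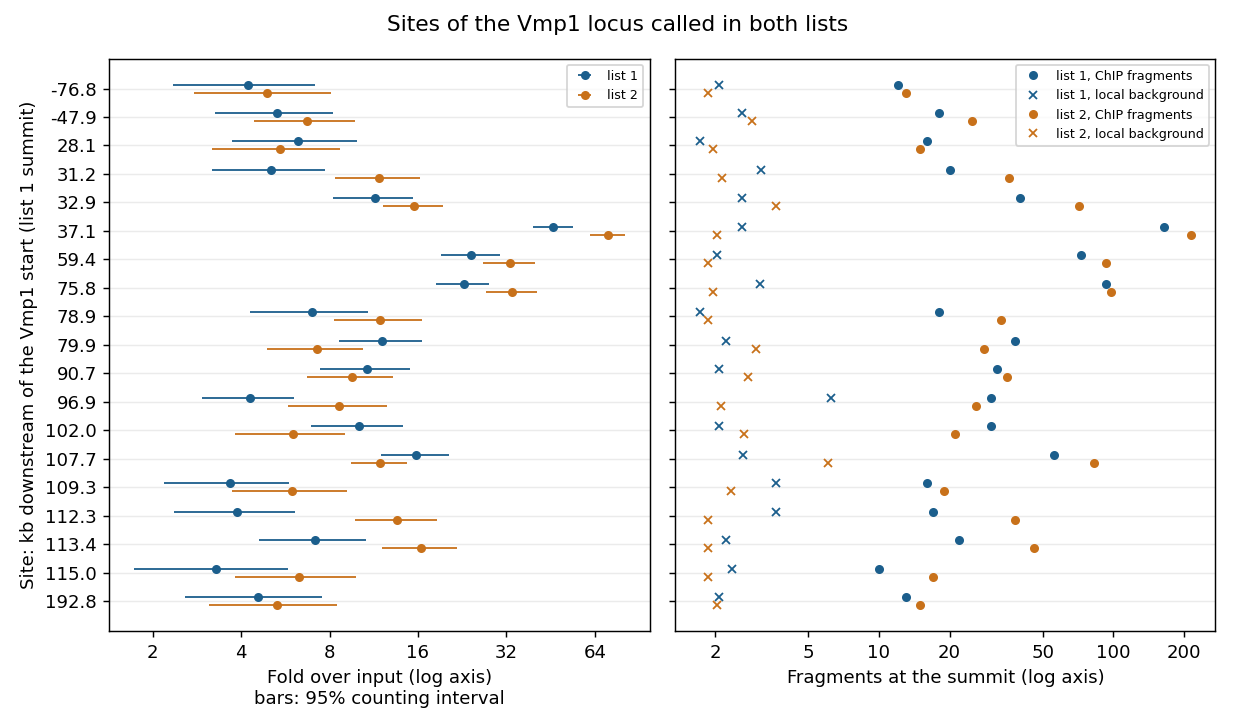
The 19 sites called in both lists, ordered by distance from the Vmp1 start, with fold over input and its 95% counting interval (left) and with ChIP fragments and local background at the summit (right), both on log axes. List 1 is drawn above list 2 in each row. The intervals stand apart at 4 sites, each with the lower fold in list 1, and overlap at 15.

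The lists shared the order of sites only in part. Across the 19 sites the folds of list 1 and list 2 had a Pearson correlation of 0.79 on the log2 scale and a Spearman correlation of 0.65, a description of sites that share their libraries and, in part, their background. The fold was lower in list 1 at 14 sites and higher at 5. As a log2 ratio, list 1 over list 2, the median was −0.44 (SD 0.68 across sites, from −1.81 to 0.75). Over all 15015 such sites of the lists the median was −0.15 (SD 0.55), and 61.8% were lower in list 1. The intervals did not overlap at 4 of the 19: the strongest site, the pair around the Tubd1 end, and a site 31.2 kb from the Vmp1 start with folds of 5.07 (3.19 to 7.70) and 11.8 (8.36 to 16.2). Each list rests on 1 ChIP library, so no spread between cultures is known for these values.

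Few genes of a like length held as many peaks. Among 1516 protein-coding genes whose span was within 25% of that of Vmp1 the median was 1 summit inside the span in each list, and 47.9% had none in list 1 and 48.0% in list 2. The 11 list 1 summits of Vmp1 were reached or passed by 0.264% of these genes, Vmp1 included, which are Bcar3 with 14, Myh9 and Nrp2 with 12 each, and Vmp1. The 14 list 2 summits were reached by 0.066%, Vmp1 alone. With 100 kb added on either side, 0.198% of them had 21 summits or more in list 1 and 0.066% had 26 or more in list 2, against a median of 3 in both. Vmp1 was picked for study with its peaks known, so its place in this order is not a finding.

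**Figure D3:**
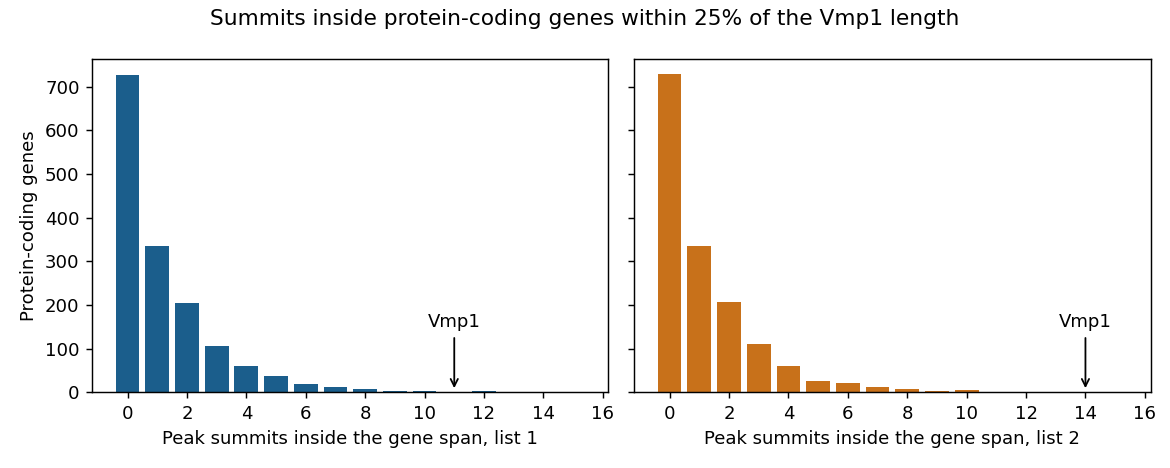
Number of protein-coding genes with a span within 25% of that of Vmp1 (y axis) by the number of summits inside the gene span (x axis), for list 1 (left) and list 2 (right). Arrows mark Vmp1, with 11 summits in list 1 and 14 in list 2, where the median gene has 1.

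By number and strength of the peaks inside the span, the genes most like Vmp1 were Denn2b, Slc24a3, Ddah1, Myo10 and Runx2. Likeness was the distance over 4 scaled values, the count of summits and the highest fold in each list, among 3691 protein-coding genes with a summit inside in both lists. Denn2b, encoding a DENN-domain protein, was nearest (distance 0.38), with 12 summits in list 1 and 13 in list 2 and highest folds of 47.4 and 57.6. Slc24a3, encoding a sodium, calcium and potassium exchanger, had 12 and 15 summits and highest folds of 34.2 and 62.1. Ddah1, encoding an enzyme that degrades asymmetric dimethylarginine, had 9 and 11 and folds of 46.9 and 76.3. Myo10, encoding the filopodial motor myosin X, had 13 and 12 and folds of 54.7 and 52.5. Runx2, encoding a transcription factor of bone formation, had 11 and 13 and folds of 37.6 and 47.8. All 5 spans are longer than that of Vmp1, from 135.6 kb for Ddah1 to 474.4 kb for Slc24a3.

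The relatives of microRNA-21 had fewer summits around them than Mir21a, which had 19 within 100 kb in list 1 and 22 in list 2. Mir21a was picked with its peaks known, so its higher count is not a finding. Mir21c, with the same seed, lies on chromosome 8 and had 1 summit within 10 kb in each list, 4.88 kb away at 5.85-fold in list 1 and 5.18 kb away at 5.53-fold in list 2. Within 100 kb it had 7 in list 1 and 6 in list 2. Mir21b, on chromosome 3, had no summit within 100 kb in either list.

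Of 36 microRNA genes studied in heart and fibrosis, Mir21a included, 21 had a list 1 summit within 10 kb of an end. In list 2 there were 18, and 17 genes had a summit in both. The shares were 58.3% (Wilson interval 42.2 to 72.9) in list 1 and 50% (34.5 to 65.5) in list 2. Over all 1228 microRNA genes the shares were 17.4% and 17.8%, and they were 52.4% and 51.5% within 50 kb and 1.87% and 2.12% within 1 kb. Neighbouring microRNA genes share peaks, so the 21 genes stood for 14 different strongest peaks in list 1 and the 18 for 13 in list 2. Both intervals lay above the share of all microRNA genes, but they treat each gene as separate. The microRNA list was chosen with earlier results of these data known, so the intervals are a description and not a test. The median of the strongest fold was 7.52 in list 1 and 8.62 in list 2, beside 6.92 and 7.68 over all microRNA genes with a summit. Mir30a stood highest, with a peak 1.17 kb away at 32.1-fold in list 1 (131 fragments, 26.9 to 38.1) and 74.0-fold in list 2 (211 fragments, 64.4 to 84.6). Mir199a-2 and Mir214, made from a common transcript, shared a peak at 19.2-fold in list 1 and 32.1-fold in list 2. Mir155 had one 2.27 kb away at 17.6-fold and 11.9-fold. By its strongest peak within 10 kb Mir21a followed these in list 1. In list 2 it also stood behind Mir125b-1 (15.0-fold) and Mir143 (12.2-fold), named here after their values were seen. Mir21a had more summits within that distance than any other of the 36 in both lists. It was picked for study with its peaks known, so this place is not a finding. The genes of the miR-29 family, which represses collagen transcripts, had folds of 6.66 to 11.9, and are named outside the rule for naming genes.

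**Figure D4:**
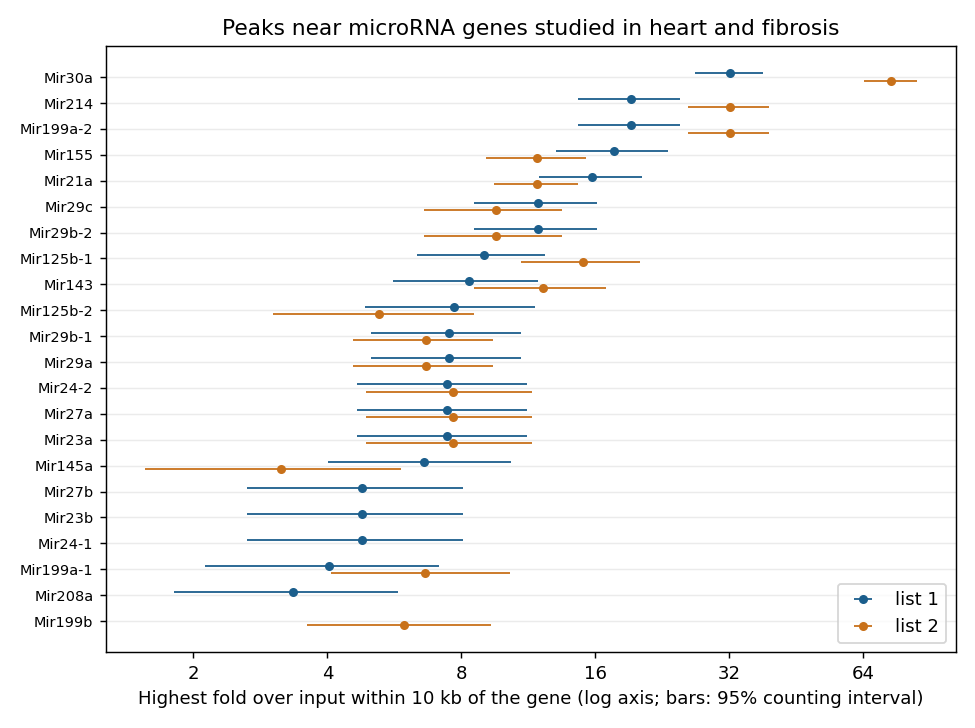
Highest fold over input among summits within 10 kb of each microRNA gene (log axis, 95% counting intervals), for the 22 of 36 genes with a summit in either list. List 1 is drawn above list 2 in each row, and Mir30a reaches 74.0-fold in list 2.

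Within 10 kb of a gene end, summits were found for a minority of the genes that act with Vmp1 in autophagy. Of 32 autophagy genes 13 (40.6%, Wilson interval 25.5 to 57.7) had a summit within 10 kb of an end of the span in list 1, beside 27.1% of all protein-coding genes. In list 2 there were 11 (34.4%, 20.4 to 51.7), beside 26.6%. In both lists the share of all genes lay inside the interval. The distance sets the share of all protein-coding genes counted, which was 57.6% and 58.2% within 50 kb and 5.57% and 5.23% within 1 kb. The median strongest fold was 6.24 in list 1 and 6.99 in list 2, beside 6.83 and 7.33 over all genes with a summit. Rb1cc1, encoding the scaffold FIP200 of the ULK1 initiation complex, was strongest, at 37.7-fold (31.2 to 45.2) and 30.7-fold (26.3 to 35.7) and 4.06 kb from a gene end in list 1. Atg10, an E2-like enzyme of the ATG12 conjugation system, had a summit 0.05 kb from one of its ends in list 1, with folds of 29.7 and 34.2. Tmem41b, the protein most like VMP1 in function, also a phospholipid scramblase of the endoplasmic reticulum, was at 13.99-fold (10.2 to 18.8) and 19.9-fold (15.1 to 25.7), 6.76 kb from a gene end in list 1. Sqstm1, encoding the cargo receptor p62, was at 9.55-fold and 8.33-fold. Becn1, Ulk2, Atg5 and Map1lc3b, chosen after their values were seen, had no summit within 10 kb of an end in either list. Atg5 had 1 summit farther inside its span in list 2. With summits inside the span also counted, 16 autophagy genes had one in list 1 and 15 in list 2. The share of all genes was not counted in that way.

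Of 15 genes described as repressed by miR-21, several known as targets only from other cell types or species, 7 (46.7%, Wilson interval 24.8 to 69.9) had a list 1 summit within 10 kb and 4 (26.7%, 10.9 to 51.95) a list 2 summit, beside 27.1% and 26.6% of all protein-coding genes. All 4 of list 2 were also among those of list 1, and 8 genes had no summit within 10 kb of an end in either. Among these 8, Tgfbr2, named after its values were seen, had 2 summits inside its span in each list. The share of all genes lay inside the interval in both lists. Smad7, the inhibitor of TGF-beta signalling, was strongest at 47.0-fold (39.2 to 55.9) in list 1 and 33.6-fold (28.1 to 39.9) in list 2. Tpm1, encoding a tropomyosin of the actin filament, was at 16.9-fold and 10.8-fold. Timp3, a metalloproteinase inhibitor, was at 11.1-fold and 9.89-fold by different sites in the lists. Spry2, an inhibitor of ERK signalling, was at 7.71-fold and 8.03-fold. The 3 genes in list 1 only, named after their values were seen, were Btg2, Fasl and Pdcd4, with 8 to 14 fragments and folds of 3.30 to 4.30. The median strongest fold was 7.71 in list 1 and 10.4 in list 2, on 7 and 4 genes, beside 6.83 and 7.33 over all genes with a summit.

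Peaks do not measure expression, so the labelled cell type could not be checked by marker levels. A summit within 10 kb was found for 11 of 12 resident fibroblast markers in list 1 (91.7%, Wilson interval 64.6 to 98.5). In list 2 there were 9 (75%, 46.8 to 91.1). Over all protein-coding genes the shares were 27.1% and 26.6%. The highest list 1 folds were at Ddr2 (25.4-fold and 21.9-fold), Col1a2 (13.7-fold and 18.1-fold), Col1a1 (12.9-fold and 10.8-fold) and Pdgfra (9.18-fold and 10.8-fold). Tcf21 had no summit within 10 kb in either list, and Dcn and Mfap5 had one in list 1 only. The counts were 5 and 5 of 12 for cardiomyocyte markers, 3 and 1 of 12 for endothelial markers, and 4 and 3 of 12 for leukocyte markers. The Wilson intervals of the cardiomyocyte, endothelial and leukocyte shares held the share of all genes in both lists. Those of the fibroblast markers lay above it in both. The marker lists were chosen with earlier results of these data known, so the intervals are a description and not a test. The strongest folds among the cardiomyocyte, endothelial and leukocyte markers were 15.1 and 13.6, at Eng.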

How the data were processed

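The deposited data were 2 peak lists, each called against input, with no header. Trimmomatic 0.33, Bowtie 1.1.2 and MACS2 are named in the submitters' processing notes, while MACS2 settings and any removal of duplicates are not given in the sources used for this text. The deposited fold is a ratio, and the authors' −log10 p and −log10 q and the score (the whole part of 10 times −log10 q, for all but 2 peaks of list 2) belong to single peaks. The build named in the notes is mm39. Since peaks lie beyond the known lengths of chromosomes 2, 3, 7 and X in it, coordinates were read as GRCm38, counted from 1.

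Library sizes are not in the lists. Fragment numbers at summits were recovered by solving the authors' fold and p with a Poisson upper tail. The solutions were within 0.02 of a whole number for 99.99% of the peaks of either list. The medians were 19 fragments in list 1 and 22 in list 2, and the lowest was 8 in both. Intervals are exact Poisson 95% intervals for fold and Wilson intervals for shares, and cover counting error only. Overlapping peaks were paired by closest summits. Recovery and pairing were tested on simulated data.

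The RefSeq table gives gene spans without exons, so exonic or intronic position was not analysed here. Every entry of the gene lists matched a symbol, and 1 gene first put among the miR-21 targets is not reported here. Named genes were those of the window and the 5 most like Vmp1. From each list the 4 with the highest list 1 fold were named, among genes with a nearby summit in both lists. Of the cardiomyocyte, endothelial and leukocyte markers only the gene with the highest fold was named. The members and lists were chosen with earlier results of these data known. Calculations used Python 3.11.15, pandas 2.3.3, numpy 2.4.6 and scipy 1.17.1. Alternatives were other windows, stricter thresholds, other pairings and other backgrounds.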

Additional observations from a re-analysis of the deposited data

How the results depend on the processing

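No paired analysis was possible because each group holds 1 library and the peak lists carry no replicate number. Peaks of the locus called in 1 list only rested on 10 to 20 fragments, as did some called in both, and counting intervals are wide at that depth. Inside the Vmp1 span alone the summits numbered 11 in list 1 and 14 in list 2, and over the whole window 8 and 9 summits had folds of at least 10 (6 in each list inside the span). With nothing added to fragments and background the strongest site was 63.6-fold in list 1 and 105.4-fold in list 2, and over the lowest background of list 1 it was 61.0-fold there. With summits within 50 kb, 24 of 32 autophagy genes were counted in each list and 10 of 15 miR-21 target genes in list 2, beside 57.6% and 58.2% of all protein-coding genes in list 1 and list 2. Of the 36 microRNA genes 31 were counted in list 2, beside 51.5% of all microRNA genes. Within 1 kb the counts were 7 and 3 for autophagy genes, 0 and 0 for miR-21 target genes, and 4 and 4 for microRNA genes, beside 5.57% and 5.23% of all protein-coding and 1.87% and 2.12% of all microRNA genes. With −log10 q of at least 5, 4 miR-21 target genes were left in list 1, beside 21.8% of all protein-coding genes. The moves of the counts follow from the windows and thresholds, which admit more or fewer peaks, and those of the fold from the constant or background put in its place. The median ratio of folds between list 1 and list 2 stayed negative on the log2 scale under all its alternatives, from −0.59 where most of both peaks had to overlap to −0.35 for fragment numbers. Pairing by largest overlap, chosen after the data were seen, gave −0.43 on 19 sites.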
